A study of Mus musculus with 12 samples.

Results

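Aminoacyl-tRNA synthetases attach each amino acid to its own tRNAs, so that the genetic code is read as the charged tRNAs enter the ribosome. Most animal cells hold a cytosolic set and a separate, nuclear-encoded mitochondrial set, and the glycine and lysine enzymes (Gars and Kars) serve both compartments from a single gene. Many cytosolic synthetase genes are textbook targets of ATF4, the transcription factor that is made when initiation factor eIF2 is phosphorylated under stress and that acts through C/EBP-ATF response elements in promoters. To describe how these genes stood in melanoma cells depleted of OSGEP, 36 synthetase genes were taken by name from the 55487 genes of the deposited count tables. They comprised 20 cytosolic enzymes, namely Aars, Cars, Dars, Eprs, Farsa, Farsb, Gars, Hars, Iars, Kars, Lars, Mars, Nars, Qars, Rars, Sars, Tars, Vars, Wars and Yars, and 16 mitochondrial enzymes, namely Aars2, Cars2, Ears2, Fars2, Hars2, Iars2, Lars2, Mars2, Nars2, Pars2, Rars2, Sars2, Tars2, Vars2, Wars2 and Yars2. The genes were chosen by the name of the enzyme and by no threshold on a value, though earlier results of these data were known.

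The cells were B16F10, a mouse melanoma line, labelled WT with a control hairpin (shCtr) or KD OSGEP with hairpin number 2 against Osgep (shOSGEP), so the knockdown rests on 1 hairpin. The product of Osgep is the enzyme of the KEOPS complex that builds N6-threonylcarbamoyladenosine, or t6A, a modification beside the anticodon of cytosolic tRNAs whose codons begin with A (written ANN here). Ribosome-protected fragments (RPF), captured with a puromycin analogue after cycloheximide, and total RNA, labelled polyA RNA, were sequenced from 3 replicates of each genotype, which gave 12 libraries from 6 cell samples. The methods of the study state that transductions were independent, and the labels do not tie each replicate to its own.

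Depth was 46.7 to 81.1 M (mega) counts in total RNA and 12.9 to 40.3 M in RPF libraries, where protein-coding genes took 4.42 to 17.0 M. In counts per M (CPM), Osgep RNA measured 13.9, 15.7 and 15.3 in shCtr replicates 1, 2 and 3 and 0.589, 6.92 and 6.78 in shOSGEP. Its RPF level was 7.72, 7.28 and 4.71 CPM in shCtr and 4.87, 3.81 and 2.36 CPM in shOSGEP, so the log2 change of pair 1 was -4.48 in RNA and -0.66 in RPF. The 7 melanocyte lineage markers (Mitf, Sox10, Tyr, Tyrp1, Dct, Pmel and Mlana) were detected in every library, with a summed total RNA level of 9665 to 16836 CPM in shCtr and 2655 to 12789 CPM in shOSGEP, the lowest being shOSGEP replicate 1. The 16 markers of leukocytes, fibroblasts, epithelium and endothelium summed to 10.4 to 14.5 CPM in shCtr and 13.4 to 27.7 CPM in shOSGEP, and 5 of them (Cd3e, Cd8a, Epcam, Krt5 and Cdh5) had no total RNA read in any library. The 10 genes listed for the interferon response summed to 42.3 to 95.2 CPM in shCtr and to 959.8, 52.3 and 85.05 CPM in shOSGEP replicates 1, 2 and 3. The shOSGEP replicate 1 total RNA library thus had the lowest Osgep and melanocyte marker levels and the highest interferon response level. Many synthetase results are therefore given by replicate pair, meaning the shOSGEP library against the shCtr library with the same number. Others are fitted values over all replicates, replicate 1 included. Less RNA per cell and fewer cells of a state cannot be told apart in bulk libraries.

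The promoters of the synthetases were searched for the C/EBP-ATF response element, spelled TGATGNAAN on either strand, from 250 bases before to 50 bases after the start of transcription (RefSeq, GRCm38.p6). Such windows existed for 27 of the 36 genes (13 cytosolic, 14 mitochondrial) but not for Cars, Hars, Lars, Nars, Rars, Vars, Wars, Hars2 and Pars2. The letters occurred in 5 of the 13 cytosolic promoters, those of the alanine, glycine, isoleucine, threonine and tyrosine enzymes, and in 0 of the 14 mitochondrial promoters. Among all 32851 windows of this length 3.95% held them, and counted by gene symbol 4.5% of 27025 did. So did 4 of the 15 promoters found for a list of 16 genes of the ATF4 axis (Asns, Chac1, Trib3 and Slc7a11). The 30 bases around a match in each are shown because these 5 genes were all higher in shOSGEP total RNA in 3 of 3 pairs, and 2 textbook ATF4 targets, the asparagine synthetase gene Asns and the glutathione-degrading enzyme gene Chac1, are shown beside them. Capitals mark the match, and each line reads 5′ to 3′ on the strand that carries it.
Aars, chr8:111033839-111033868, minus strand: cagagcgctcTGATGAAAAgtgacccgcta
Gars, chr6:55037959-55037988, minus strand: gcccggtgcaTGATGAAATagcgcagccag
Iars, chr13:49682125-49682154, minus strand: cgtctggaggTGATGCAATactgacagtgc
Tars, chr15:11399656-11399685, plus strand: gctaaccagcTGATGCAACgggactcctgg
Yars, chr4:129189895-129189924, plus strand: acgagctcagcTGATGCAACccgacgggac
Asns, chr6:7693214-7693243, minus strand: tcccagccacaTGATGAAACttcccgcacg
Chac1, chr2:119351037-119351066, minus strand: ctggcaggagTGATGCAACggcagggaagg

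The synthetase matches shown lay at bases -31 to -23 in Gars, -16 to -8 in Tars, 4 to 12 in Yars, 7 to 15 in Iars and 9 to 17 in Aars, counted from the annotated start. The spelling TGATGCAAC was shared by Tars, Yars and Chac1. A match is a string of letters and no measured binding site.

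Levels were compared between genes per length in shCtr cells, from the counts per gene. Total RNA CPM was taken per kilobase of the transcript with the longest complete coding sequence, and RPF CPM per kilobase of that coding sequence. The levels rest on this choice of transcript, as in Mars2, with 11294 bases of transcript and 1761 of coding sequence. Transcripts of the cytosolic enzymes were more abundant, with a median RNA level of 45.1 CPM per kilobase (range 21.9 to 179.5). The median was 7.01 (range 1.44 to 26.2) for the mitochondrial ones. Gars, the glycine enzyme of both compartments (chromosome 6, 55038007 to 55079500, plus strand), was the highest of all 36 at 179.5 ± 12.6 (SD, n = 3), and Kars followed at 80.8 ± 5.60. The lowest cytosolic gene was Lars, the leucine enzyme, at 21.9 ± 1.96, and the lowest mitochondrial gene was Pars2, the proline enzyme, at 1.44 ± 0.0739. Gars and Kars, which also supply mitochondria, thus held the top of the order. Kars, Vars (74.9 ± 7.37), Sars (73.7 ± 15.2) and Wars (73.3 ± 4.82) lay within each other's spread.

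Footprint levels ordered the sets in the same way, apart from Lars2. On the per-length scale the RPF level ranged from 12.2 to 92.2 in the cytosolic set and reached 9.53 (Iars2) in the mitochondrial set without Lars2. Lars2, the mitochondrial leucine enzyme, measured 2176 ± 1060 RPF CPM per kilobase at an RNA level of 26.2 ± 7.23. Its log2 ratio of RPF to RNA CPM was 5.77 ± 1.07, higher than in 99.95% of 11311 protein-coding genes, whose median was -1.38. The transcript of Lars2 with the longest coding sequence (3894 bases) held 5 stretches that matched other places on the assembled nuclear chromosomes. Each had at least 100 bases and at least 95% identity. They lay between transcript bases 3022 and 3419, after the coding sequence ends at base 2908. The best of them was 98.8% identical over 168 bases on chromosome 6 and the longest was 97.5% identical over 244 bases on chromosome 12. Matches in mitochondrial DNA or in sequences outside the assembled chromosomes were not kept for any synthetase. Whether footprints of other RNAs were counted in Lars2 was not tested, and its RPF values are given here as those of the annotated gene. Of the other synthetase transcripts, 3 held such a stretch elsewhere on the assembled chromosomes. In Tars and Wars2 it lay outside the coding sequence, and in Iars it took in 59% of the coding bases, so reads of Iars may be shared with its copies.

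**Figure D1:**
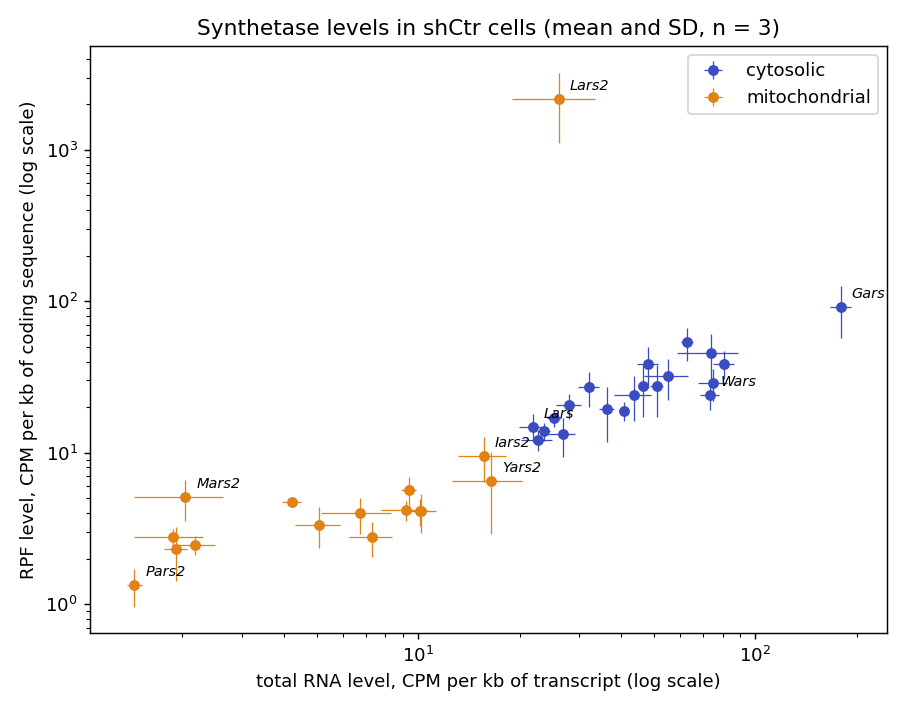
Total RNA level (x axis, CPM per kilobase of transcript, log scale) against RPF level (y axis, CPM per kilobase of coding sequence, log scale) of the 36 synthetase genes in shCtr cells, where points are means and bars are SD of 3 replicates. Cytosolic genes (blue) lie between 21.9 and 179.5 on the RNA axis, mitochondrial genes (orange) between 1.44 and 26.2, and Lars2 alone lies at 2176 on the RPF axis.

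The question of whether OSGEP loss changed the synthetase transcripts was addressed first in total RNA. No synthetase passed an adjusted p of 0.05 in the quasi-likelihood test of edgeR (0 of 36, with 0% of all 14516 genes called), and no count or direction below carries a call. Cytosolic synthetase RNA was nonetheless higher in shOSGEP in most comparisons by pair. Of the 20 genes, 15 were higher in 3 of 3 pairs, beside 17.7% of all genes tested, and 3 (Vars, Qars and Farsa) were lower in 3 of 3, beside 16.2%. The median fitted log2 change of the cytosolic set was 0.25 (range -0.30 to 0.51), compared with 0.02 over all genes. By pair the cytosolic median was 0.33, 0.15 and 0.21, and with pair 1 left out 16 of the 20 were higher in both other pairs, beside 26.9% of all genes. The mitochondrial set gave 6 of 16 higher in 3 of 3 pairs, 1 lower and a median of 0.03. With pair 1 left out, 9 of the 16 were higher in both other pairs, beside the same 26.9% of all genes.

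Without pairing, the 3 shOSGEP values lay above all 3 shCtr values for 10 cytosolic genes (Aars, Cars, Eprs, Gars, Iars, Lars, Nars, Rars, Tars and Yars) and for 3 mitochondrial genes (Ears2, Nars2 and Rars2), beside 4% of all genes (580 of 14516). No synthetase lay wholly below, beside 3.09% of all genes. An unadjusted p under 0.05 was reached by 4 genes, Nars, Cars, Lars and Tars, each of them higher, beside 1.52% of all genes. With the replicate number as a block these were 8 genes, again each of them higher, beside 2.51%, and the smallest adjusted p of a synthetase was 0.72.

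Nars, the asparagine enzyme on chromosome 18, had the smallest p of the 36. Its total RNA level was 176, 164 and 177 CPM in shCtr replicates 1, 2 and 3 and 294.5, 215 and 226 CPM in shOSGEP. The groups did not overlap, and replicate 1 of shOSGEP was the highest of the 6 libraries. The fitted log2 change was 0.51 (SE 0.16, edgeR adjusted p 0.975).

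Cars, the cysteine enzyme (ENSMUSG00000010755, chromosome 7, 143557230 to 143600090, minus strand), measured 79.4, 64.3 and 74.8 CPM in shCtr and 116, 88.9 and 94.4 CPM in shOSGEP. Its changes by pair were the most even of the top 3, at 0.55, 0.47 and 0.33, and the fitted change was 0.46 (SE 0.16). Lars, which charges leucine tRNAs as part of the multi-synthetase complex, measured 86.8, 79.8 and 95.4 CPM in shCtr and 141, 99.7 and 121 CPM in shOSGEP. The lowest shOSGEP value exceeded the highest shCtr value by a small margin, and the fitted change was 0.47 (SE 0.17). The edgeR adjusted p was 0.975 for both.

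Tars, the threonine enzyme (chromosome 15, 11382301 to 11399665, minus strand), measured 104, 109 and 123 CPM in shCtr and 133, 139.5 and 148 CPM in shOSGEP. Threonine is also the amino acid that KEOPS-dependent t6A carries. The pairs gave nearly the same change for Tars, at 0.35, 0.35 and 0.27, and the fitted change was 0.32 (SE 0.13, edgeR adjusted p 0.975). Gars measured 461.5, 406 and 414 CPM in shCtr and 684, 496 and 516 CPM in shOSGEP, with a fitted change of 0.40 (SE 0.17). Its pair 1 change of 0.57 was larger than those of pairs 2 and 3, at 0.29 and 0.32.

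The arginine, isoleucine and alanine enzymes came next among the cytosolic genes. Rars measured 99.3, 98.3 and 97.2 CPM in shCtr, the tightest control group of those named here, and 127, 122 and 110 CPM in shOSGEP. Iars measured 180, 176 and 187 CPM in shCtr and 219, 227 and 201.5 CPM in shOSGEP, and Aars 298, 261 and 269 CPM against 417, 305 and 325 CPM. None of these 3 genes overlapped between the groups, and their fitted changes were 0.29 (SE 0.12), 0.25 (SE 0.12) and 0.34 (SE 0.17), with the edgeR adjusted p at 0.975 in each. In Iars the largest change stood in pair 2 (0.37) and not in pair 1 (0.29). Aars overlaps the gene Exosc6 on the same strand, and reads from the overlap may be shared.

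**Figure D2:**
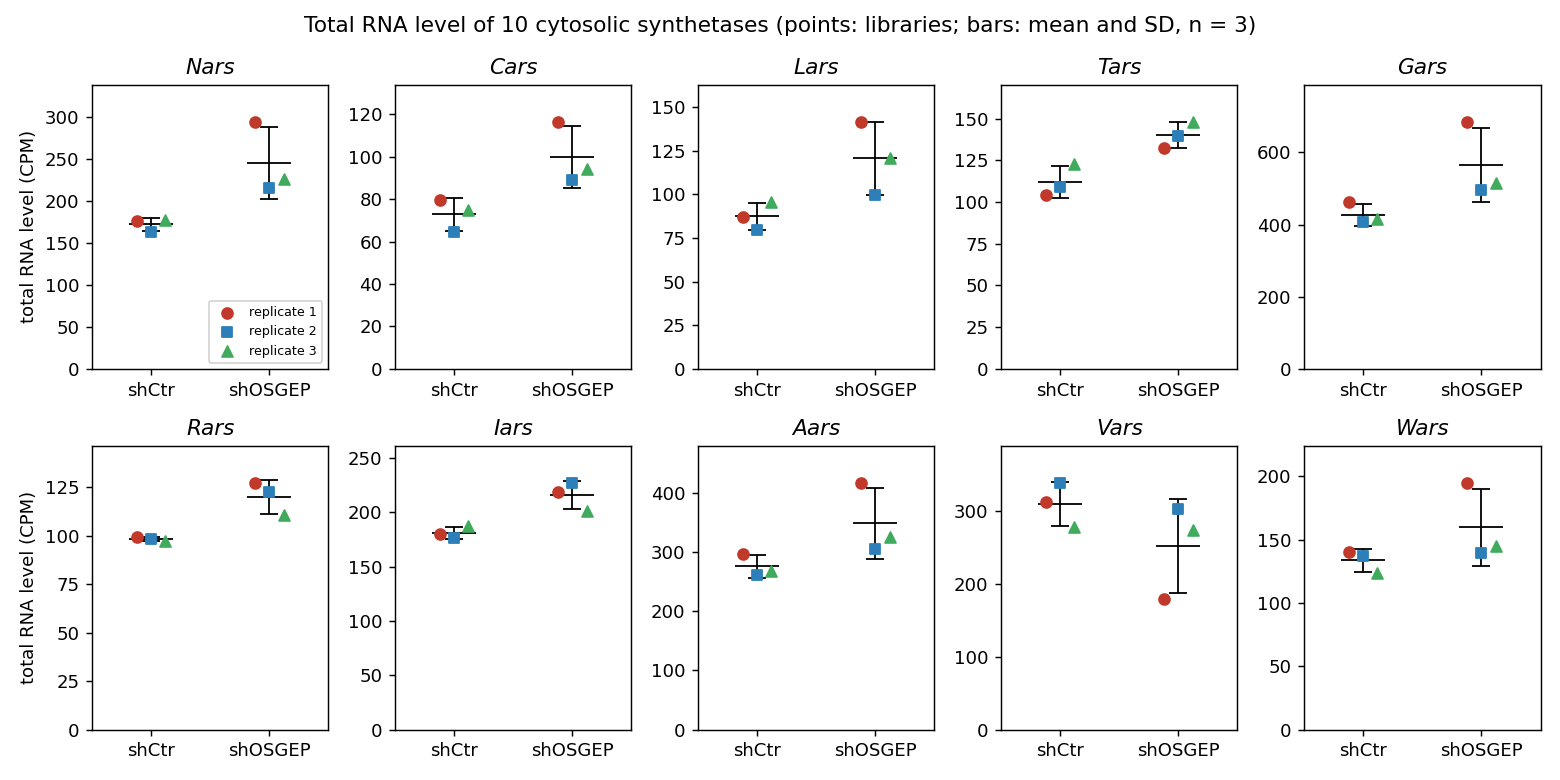
Total RNA level in CPM (y axes, from 0) of 10 cytosolic synthetases in shCtr and shOSGEP cells, where coloured points are libraries by replicate number and black bars are the mean and SD of 3 replicates. The groups do not overlap in 8 of the panels, whereas in Vars the shOSGEP replicate 1 library is the lowest at 179 CPM and in Wars it is the highest at 195 CPM.

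The rest of the cytosolic set included genes without that pattern. Vars, the valine enzyme, was chosen for mention after its values were seen. It measured 313, 339 and 278 CPM in shCtr and 179, 302 and 274.5 CPM in shOSGEP, so that the groups overlapped and the pair changes were -0.81, -0.16 and -0.02. The glutamine enzyme gene Qars (-0.38, -0.09 and -0.05) and Farsa, the alpha subunit of the phenylalanine enzyme (-0.28, -0.09 and -0.07), had the lowest value in pair 1 too, whereas the beta subunit gene Farsb was higher in 3 of 3 pairs, at 0.11, 0.15 and 0.07. Kars and Mars, the lysine and methionine enzymes, differed in direction between pairs, with fitted changes of -0.08 and 0.00. Reads of Mars cannot be told apart from those of the stress gene Ddit3 on the opposite strand where they overlap, since the use of strand in counting is not stated.

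Wars, the tryptophan enzyme, is induced by interferon in many cells. Its total RNA level was 140, 137 and 124 CPM in shCtr and 195, 139 and 145 CPM in shOSGEP, and its changes by pair were 0.48, 0.02 and 0.23. The 9 interferon response genes that passed the filter on low counts (all but Irf7) had median pair changes of 3.38, 0.61 and 0.39 in the same libraries. Outside shOSGEP replicate 1, Oasl2 and Usp18 measured at most 0.425 and 0.868 CPM. The part of the interferon response genes in the Wars values was not tested. The fitted change of Wars was 0.26 (SE 0.17, edgeR adjusted p 0.975), and the gene overlaps Wdr25 on the opposite strand.

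**Figure D3:**
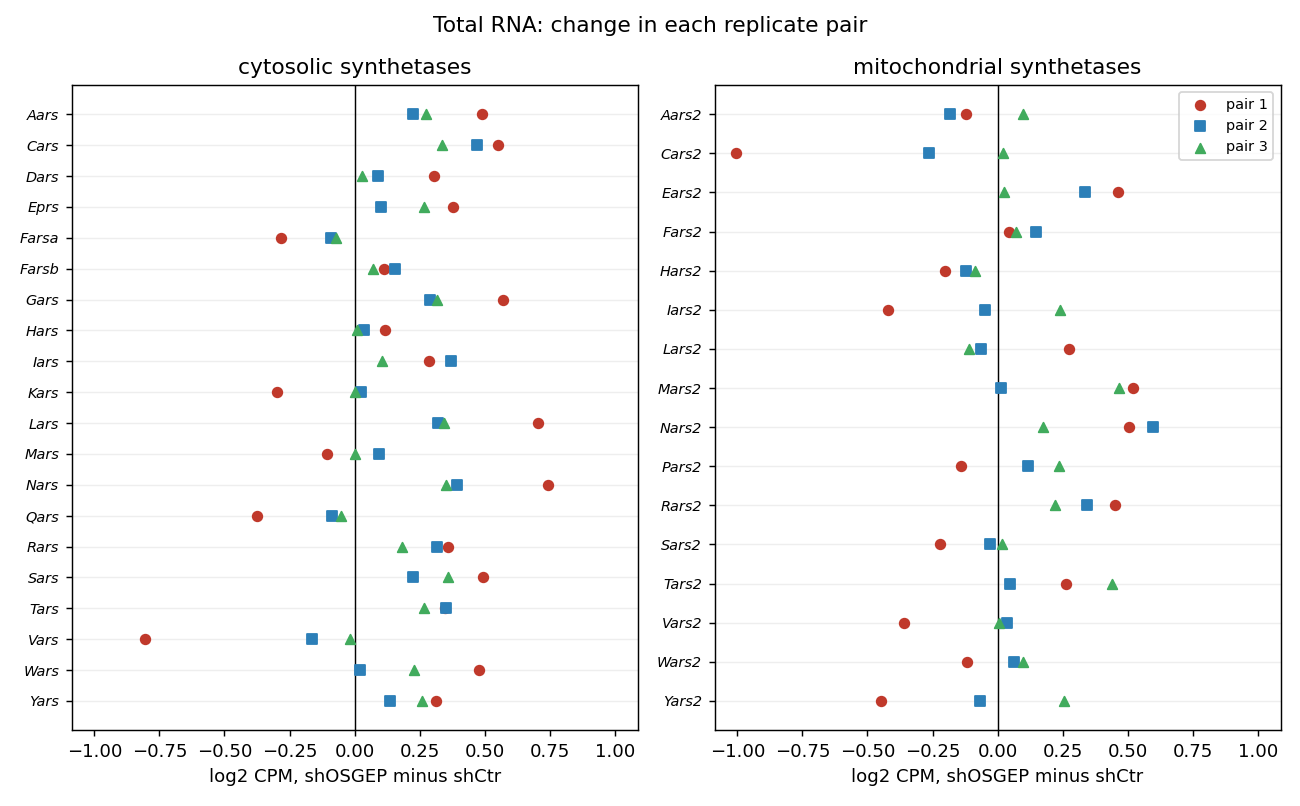
Change in total RNA level (x axes, log2 CPM of shOSGEP minus log2 CPM of shCtr with the same replicate number) for each cytosolic (left) and mitochondrial (right) synthetase, with 1 point per pair. Points of all 3 pairs lie to the right of 0 for 15 of 20 cytosolic and 6 of 16 mitochondrial genes.

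The cytosolic genes were then grouped by what the enzymes are. The 9 class I enzymes had 6 genes higher in 3 of 3 pairs and a median change of 0.25, and the 10 class II enzymes had 8 and 0.23. Eprs, a fusion of a class I glutamate and a class II proline enzyme, was left out of both and stood at 0.25. The 8 enzymes of the multi-synthetase complex (Dars, Eprs, Iars, Kars, Lars, Mars, Qars and Rars) had 5 genes higher in 3 of 3 pairs and a median of 0.19, and the 12 free enzymes had 10 and 0.29. The 7 enzymes that charge tRNAs reading ANN codons, which are the substrates of t6A (Iars, Kars, Mars, Nars, Rars, Sars and Tars, a grouping made after the values were known), had 5 and 0.29, and the other 13 had 10 and 0.24. These groupings are described and their differences were not tested.

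The 5 cytosolic genes whose promoter windows held the letters of the response element had fitted changes of 0.24 to 0.40 with a median of 0.32. Of the 8 whose windows lacked it, 4 were higher in 3 of 3 pairs (Dars, Eprs, Farsb and Sars), 2 were lower, and the median was 0.06 (range -0.18 to 0.38). The 7 genes without a window had 6 higher and a median of 0.29, among them Nars, Cars and Lars. Absence of the letters from a window says nothing about other positions, and the differences between these sets were not tested.

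The 16 genes of the ATF4 axis were examined beside the synthetases, from a list fixed with earlier results of these data known. All 16 had fitted RNA changes above 0, beside 7712 of all 14516 genes. Their median was 0.49, and they ranged from 0.002 (Slc7a1) to 2.08 (Trib3). Of the 16, 11 were higher in 3 of 3 pairs, beside 17.7% of all genes, but none passed the threshold. Asns measured 148, 110 and 132 CPM in shCtr and 339, 170 and 200 CPM in shOSGEP, with pair changes of 1.20, 0.63 and 0.60, and the pseudokinase gene Trib3 had pair changes of 2.33, 1.04 and 2.44. The 3 non-catalytic scaffold proteins of the multi-synthetase complex had fitted changes of 0.11 (Aimp1), -0.12 (Aimp2) and 0.10 (Eef1e1), and Aimp1 and Eef1e1 were higher in 3 of 3 pairs. The list of 7 editing, paralogue and selenocysteine genes had 0 genes higher in 3 of 3 pairs, beside 17.7% of all genes. It had 2 lower (Dtd1 and Tarsl2), beside 16.2%, and its median fitted change was 0.09.

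Among the mitochondrial synthetases, which charge tRNAs for the proteins encoded in mitochondrial DNA, Rars2 and Nars2 had the smallest p in total RNA. Rars2 (arginine) measured 18.3, 18.3 and 20.4 CPM in shCtr and 25.1, 23.2 and 23.8 CPM in shOSGEP. Nars2 (asparagine) measured 7.11, 8.12 and 9.49 CPM in shCtr and 10.1, 12.3 and 10.7 CPM in shOSGEP. In both the groups were apart, and the fitted changes were 0.34 (SE 0.15) and 0.42 (SE 0.21), with the edgeR adjusted p at 0.975 for both. Pars2, at the floor of the set, measured 4.42, 4.14 and 4.59 CPM in shCtr and 4.01, 4.50 and 5.41 CPM in shOSGEP.

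The lowest fitted change of the mitochondrial set was that of Cars2 (cysteine) at -0.38, with pair changes of -1.01, -0.27 and 0.02. By pair, 7, 9 and 14 of the 16 mitochondrial genes were higher in pairs 1, 2 and 3, beside 50.4%, 52% and 50.3% of all genes, with medians of -0.12, 0.02 and 0.10.

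Footprints were examined next, since they count the ribosomes found on each transcript. None of the 36 synthetases was called in RPF (0% of all 13529 genes), and none had an unadjusted p under 0.05. The cytosolic set was higher in shOSGEP in pair 1, with 16 of 20 genes higher (49.3% of all genes) and a median change of 0.56. In pairs 2 and 3 the numbers were 10 (49.3% of all genes) and 9 (49.9%), with a median of 0.00 and -0.01. In 3 of 3 pairs 6 cytosolic and 5 mitochondrial genes were higher, beside 15.6% of all genes, and 4 and 2 were lower, beside 15.2%. Without pair 1, 6 cytosolic and 8 mitochondrial genes were higher in both other pairs, beside 27.7% of all genes. Coding depth was lowest in the shOSGEP replicate 1 RPF library, at 4.42 M, and ribosomal RNA took 67.7% of that library. The part of this library in the pair 1 values was not tested.

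Tars2, the mitochondrial threonine enzyme, had the smallest p in RPF. It measured 7.49, 10.3 and 9.37 CPM in shCtr and 12.3, 12.5 and 13.1 CPM in shOSGEP, on 133 to 504 reads per library. Its groups did not overlap, and the fitted change was 0.48 (SE 0.24, edgeR adjusted p 0.9998). Nars2 was the other gene with separate groups in RPF, beside 2.43% of all genes, at 2.99, 3.70 and 3.97 CPM in shCtr and 6.19, 5.42 and 4.54 CPM in shOSGEP. No synthetase had an RPF group wholly below, beside 2.64%. The fitted change of Nars2 was 0.60 (SE 0.31), on only 53 to 198 reads per library.

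Cars and Lars, higher in shOSGEP than in shCtr RNA, were also higher in shOSGEP footprints in 3 of 3 pairs. Cars measured 34.4, 31.8 and 24.9 RPF CPM in shCtr and 56.6, 39.1 and 33.6 in shOSGEP, and Lars 52.5, 63.7 and 41.5 against 115.5, 76.9 and 46.1. In both genes the groups overlapped, and shOSGEP replicate 1 was the highest library. The fitted RPF changes were 0.51 (SE 0.29) for Cars and 0.60 (SE 0.39) for Lars, and the change of Lars by pair was 1.14, 0.27 and 0.15. Ears2, the mitochondrial glutamate enzyme, measured 3.72, 5.15 and 6.89 CPM in shCtr and 6.85, 6.997 and 7.90 CPM in shOSGEP, with a fitted change of 0.46 (SE 0.32). The edgeR adjusted p was 0.9998 for these 3 genes and for Nars2.

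Lars2 carried the largest footprint counts, 34911 to 170224 reads per library against 4451 to 7336 in total RNA. Its RPF level was 5236, 9038 and 3410 CPM in shCtr and 2883, 3757 and 3578 CPM in shOSGEP, a range in shCtr alone that was wider than the distance between the group means. The fitted RPF change was -0.79 (SE 0.53, edgeR adjusted p 0.9998). Its RNA measured 92.1, 80.2 and 134 CPM in shCtr and 111, 76.7 and 124 CPM in shOSGEP, and those groups overlapped.

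**Figure D4:**
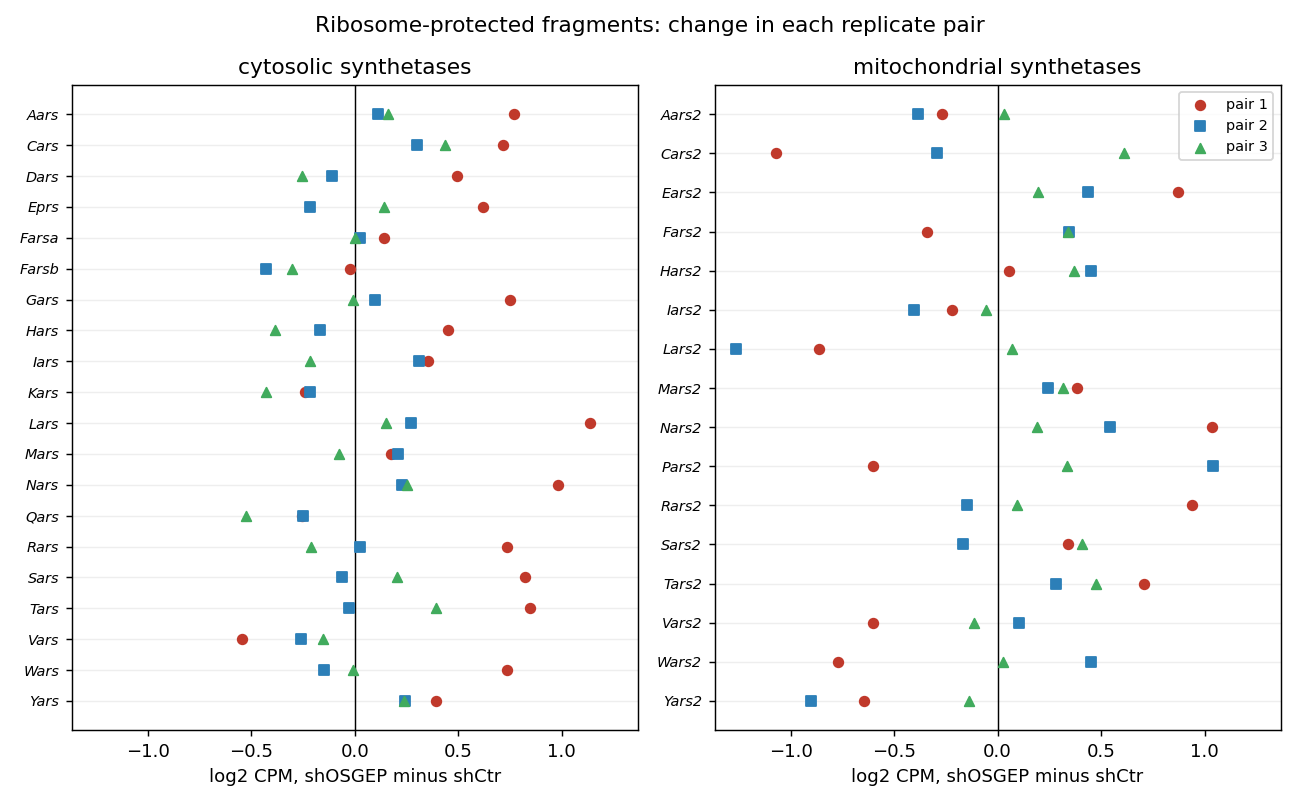
Change in RPF level (x axes, log2 CPM of shOSGEP minus log2 CPM of shCtr with the same replicate number) for each cytosolic (left) and mitochondrial (right) synthetase, with 1 point per pair. In the cytosolic panel 16 of 20 pair 1 points lie to the right of 0, against 10 of pair 2 and 9 of pair 3.

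Translational efficiency, the RPF level relative to total RNA of the same cell sample, was compared last. None of the 36 genes was called (0% of 12560 genes) and none had an unadjusted p under 0.05. Cytosolic changes differed in direction between pairs. In pair 1 the log2 ratio was higher in shOSGEP for 19 of 20 cytosolic genes (50.9% of all genes), with a median change of 0.25 and Farsb as the exception. In pair 2 it was higher for 3 (47.8% of all genes) and in pair 3 for 3 (47.9%), with medians of -0.17 and -0.17. The same 19, 3 and 3 were obtained with RLE size factors and with scaling on protein-coding genes. Over the 3 pairs 1 cytosolic gene, Farsa, was higher in each and 1, Farsb, was lower in each, beside 11.6% and 11.2% of all genes, and the fitted median was 0.01. These 2 genes encode the subunits of the same phenylalanine enzyme, and their fitted changes were 0.20 (SE 0.26) and -0.37 (SE 0.48).

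**Figure D5:**
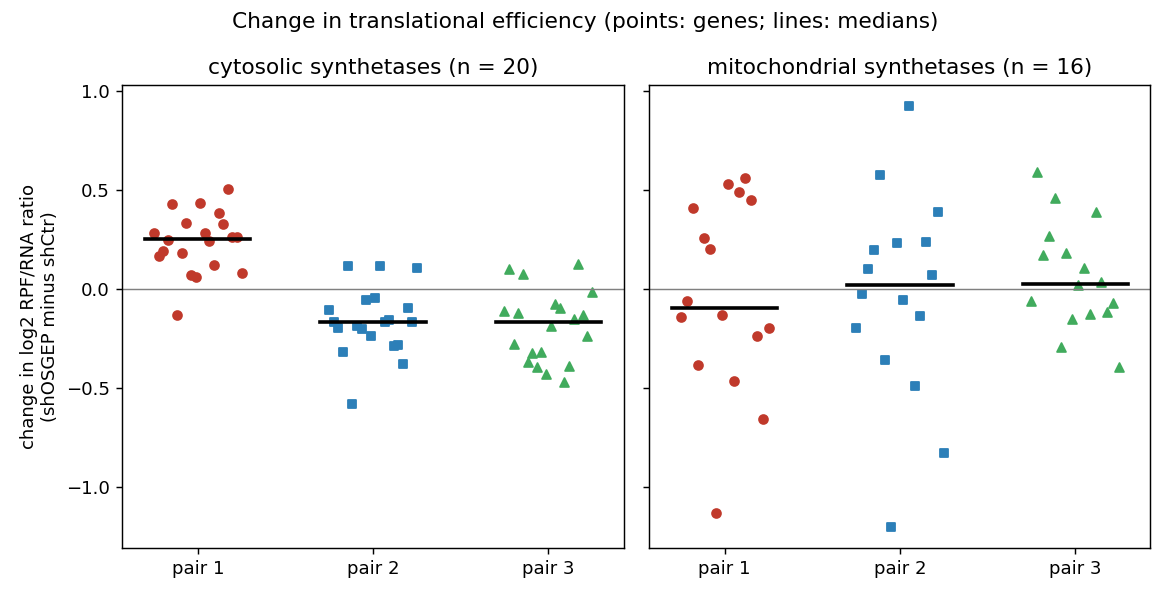
Change in the log2 ratio of RPF to total RNA (y axis, shOSGEP minus shCtr with the same replicate number) in each pair for the cytosolic (left) and mitochondrial (right) synthetases, where points are genes and lines are medians. The cytosolic medians are 0.25, -0.17 and -0.17 in pairs 1, 2 and 3, and the mitochondrial medians are -0.10, 0.02 and 0.03.

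The ratio itself also differed between replicates of one genotype. In shCtr cells the cytosolic median was -0.99, -1.03 and -1.60 on the log2 scale in replicates 1, 2 and 3, and in shOSGEP cells it was -0.80, -1.19 and -1.75, so replicate 3 was the lowest of each genotype. The mitochondrial median stayed within -1.31 to -1.23 in shCtr and -1.20 to -1.03 in shOSGEP. Gene by gene, however, 7, 8 and 9 of the 16 were higher in pairs 1, 2 and 3, and the fitted median was -0.017. The spread between replicates of the cytosolic ratio was therefore larger than the difference between genotypes.

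In the mitochondrial set 3 genes had a higher ratio in 3 of 3 pairs and 2 a lower one, and the set held the 4 genes with the smallest p for translational efficiency. Hars2, the histidine enzyme, had log2 ratios of -0.94, -1.03 and -0.91 in shCtr and -0.68, -0.45 and -0.45 in shOSGEP. Its groups did not overlap. It was the 1 synthetase of 36 that was wholly higher, near the share over all genes, 2.03%. In RNA it measured 13.1, 14.8 and 14.5 CPM in shCtr and 11.3, 13.6 and 13.6 CPM in shOSGEP, and in RPF 6.76, 7.21 and 7.63 CPM against 7.02, 9.88 and 9.87 CPM. It was thus lower in RNA and higher in footprints in 3 of 3 pairs, and the fitted change of the ratio was 0.44 (SE 0.29, edgeR adjusted p 1.00). Hars2 overlaps the cytosolic histidine gene Hars on the opposite strand, and the reads they share cannot be told apart.

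Aars2, the alanine enzyme, named after its values were seen, was the 1 synthetase of 36 with a wholly lower ratio. That is near the share over all genes, 2.31%. Its log2 ratios were -0.97, -0.90 and -0.97 in shCtr and -1.12, -1.10 and -1.03 in shOSGEP. The fitted change of the ratio was -0.15 (SE 0.36).

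Yars2, the tyrosine enzyme, had lower ratios too. Its log2 ratios were -1.54, -1.14 and -2.14 in shCtr and -1.73, -1.97 and -2.54 in shOSGEP, lower in 3 of 3 pairs but overlapping. Its RPF level was 8.06, 14.9 and 4.81 CPM in shCtr and 5.12, 7.93 and 4.35 CPM in shOSGEP, and its RNA level was 23.5, 32.8 and 21.5 CPM against 17.2, 31.2 and 25.6 CPM. The fitted change of the ratio was -0.60 (SE 0.56). Lars2 had a fitted change of -0.83 (SE 0.55), from pair changes of -1.14, -1.20 and 0.18. Tars2 had 0.23 (SE 0.26), from 0.45, 0.24 and 0.04, at RNA levels of 20.4, 26.0 and 19.8 CPM in shCtr and 24.4, 26.9 and 26.9 CPM in shOSGEP. The edgeR adjusted p was 1.00 for these 3 genes.

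Finally, the codons of the synthetases themselves were counted, because tRNAs reading ANN codons carry t6A. The cytosolic genes had a median of 27.2% ANN codons in the longest coding sequence, from 19.6% in Vars to 33.1% in Farsb, and all protein-coding genes a median of 27.0% (n = 11266). The mitochondrial genes had a median of 22.9%, from 17.7% in Aars2 to 27.8% in Lars2. The fitted change in translational efficiency was -0.37 in Farsb, 0.01, 0.00 and -0.21 in the next highest cytosolic genes by this share (Wars, Rars and Kars), and -0.03 in Vars. Across the 36 genes, which are not independent replicates and share their libraries, Spearman's rho between the ANN share and the fitted change was -0.21 for translational efficiency, 0.09 for RPF and 0.35 for total RNA. Within the 20 cytosolic genes it was -0.26, 0.19 and 0.31, within the 16 mitochondrial genes -0.16, -0.19 and -0.05, and over 11266 protein-coding genes -0.044, -0.049 and -0.011, in the same order.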

How the data were processed

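The deposited unit was the read count per Ensembl gene in 6 RPF and 6 total RNA libraries, with no normalisation. Per the labels, the authors used FastQC 0.11.9, Trim Galore 0.6.6, cutadapt and STAR, and name both GRCm38 and GRCm39. How alignments became gene counts, and how strand and multiply matching reads were handled, is not given in the sources used here. No column was left unmapped. Symbols, coordinates (GRCm38) and coding sequences came from GENCODE M21, in which all 36 genes were found. All 36 passed the filter on low counts in each fit. Other synthetases overlap annotated genes too, among them Cars2 (Naxd), Ears2 (Ubfd1) and Iars2 (Rab3gap2) on the opposite strand.

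Genotypes were compared on the counts by quasi-likelihood F-tests in edgeR 4.0.16 under R 4.3.3 (filterByExpr, TMM factors, Benjamini-Hochberg adjustment over all genes tested, threshold 0.05, genotype as the only term). Translational efficiency was the interaction of assay and genotype in a single model over 12 libraries, with TMM factors within each assay. CPM used the same library sizes, and log2 CPM a prior count of 2. Fits were tested on simulated counts without replicate effects and with changes larger than any fitted for a synthetase. Such counts do not show the power for changes as small as those of the synthetases. Alternatives used DESeq2 1.42.0, limma 3.58.1, other filters and scalings, a replicate block and omission of each library or pair. For translational efficiency the block was a term for each cell sample. As a check of pairing, deviations from the group mean were correlated between the shCtr and shOSGEP libraries of replicates 1, 2 and 3. The values were 0.59, 0.51 and 0.66 for RPF, with 0.52, 0.54 and 0.29 for total RNA, so the numbers were taken to pair the samples. Near-copies were sought on the assembled nuclear chromosomes of GRCm38.p6 with BLAST 2.17.0 (at least 100 bases, at least 95% identity).

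Members, lists, groupings and tests were chosen with earlier results of these data known. Named genes were the synthetases with the smallest unadjusted p (10 in total RNA, 6 in RPF, 4 for translational efficiency), Wars, and the highest and lowest of each set per length. Others were named after their values were seen. Some items are not reported here.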

Additional observations from a re-analysis of the deposited data

How the results depend on the processing

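No synthetase was called in any family under any alternative run, including the replicate block, DESeq2 and limma voom with sample quality weights. The 20 named results kept their direction under every alternative run, with a lowest adjusted p of 0.70, but their size moved. Without shOSGEP replicate 1 the change was 0.18 for Aars and 0.24 for Gars in total RNA (0.34 and 0.40 with it), and 0.22 for Lars and 0.25 for Cars in RPF (0.60 and 0.51 with it). Without shCtr replicate 2 it was -0.35 for Lars2 in RPF (-0.79 with it), and for translational efficiency -0.24 for Lars2 and -0.28 for Yars2 (-0.83 and -0.60 with it). Without shCtr replicate 3 the efficiency change of Lars2 was -1.34, and without shOSGEP replicate 3 that of Yars2 was -0.38. The RPF change of Ears2 (0.46) was 0.26 without shCtr replicate 1 and 0.71 without shCtr replicate 3. Without pair 1 the RPF change of Nars2 was 0.37 (0.60 with it) and the efficiency change of Tars2 0.15 (0.23 with it). Over all genes, total RNA gave 8 calls with DESeq2, 2 with limma voom and 1 with the replicate block, and RPF gave 1 with DESeq2 and 229 with no filter beyond 1 count, against 0 in the main comparisons. With the samples paired through the replicate block, the cytosolic median change was 0.24 in total RNA and 0.18 in RPF. The mitochondrial median was 0.02 and 0.16. For translational efficiency the block was the cell sample, which ties RPF to RNA of the same cells but does not pair the genotypes. With it the cytosolic median was -0.05 and the mitochondrial median 0.00. With limma voom and quality weights the cytosolic median was 0.016 in RPF and -0.18 for translational efficiency, against 0.24 and 0.01 in the main comparisons. Neither block changed a call of a synthetase.

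Leaving out single libraries or pairs gave a cytosolic median of 0.18 to 0.28 in total RNA, -0.14 to 0.41 in RPF and -0.29 to 0.26 for translational efficiency. The mitochondrial median ranged from -0.067 to 0.10, from -0.025 to 0.19 and from -0.086 to 0.11 in the same order. Without shOSGEP replicate 1 the cytosolic median was -0.14 in RPF and -0.29 for translational efficiency, without shOSGEP replicate 3 the latter was 0.26, and without shCtr replicate 1 or 3 the mitochondrial median for translational efficiency was 0.11 in each. The cause was not tested. The number of cytosolic genes higher in every pair in total RNA stayed at 15 with RLE size factors and with protein-coding genes only, alternatives chosen after seeing the data. In RPF it was 5 and 7 in place of 6. Leaving out replicate 3 gave 10 in RPF, counted over the 2 remaining pairs. RPF depth limits Pars2 and Wars2, whose lowest RPF libraries held 19 and 24 reads.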
